A study of Mus musculus with 11 samples.

Results

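The subject is a group of 9 G protein-coupled receptors through which hormones, nutrients and nerves act on pancreatic islet cells: *Glp1r*, *Gipr*, *Gcgr*, *Ffar1*, *Gpr119*, *Adra2a*, *Chrm3*, *Galr1* and *Ptger3*. They were taken by gene symbol from the deposited count table and are 9 of its 55401 genes. Each symbol matched 1 row of the table, and all 9 passed the filter on low counts. RNA-seq had been done on islet cells of 4 male C57BL6/J mice, 10 weeks old by the labels and chow fed, each carrying RIP-Cre (Cre under the rat insulin promoter), STOP-tdTomato and Nnat-EGFP. In such animals Cre is made where the insulin promoter is active, so that tdTomato marks beta cells, and EGFP reports on the promoter of *Nnat*, an imprinted gene for a small membrane protein. FACS of dispersed islets gave 4 libraries labelled NNAT-positive beta cells (here NNAT+), 4 labelled NNAT-negative beta cells (NNAT-) and 3 of non-beta cells, with mouse 4 lacking a non-beta library. The EGFP sort reads a transgene reporter, not the endogenous NNAT protein, and the non-beta fraction is whatever the gate left, not 1 cell type.

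Most of these receptors raise or lower insulin secretion through heterotrimeric G proteins. The receptors for glucagon-like peptide 1, glucose-dependent insulinotropic polypeptide and glucagon couple to Gs and raise cAMP, which amplifies glucose-stimulated secretion. FFAR1 and the M3 muscarinic receptor couple mainly to Gq and phospholipase C, whereas the alpha-2A adrenergic, galanin and EP3 prostaglandin receptors couple mainly to Gi or Go and restrain secretion.

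Libraries held between 30420352 and 43238376 counts, so that the floor used here, 3 counts, was at most 0.102 CPM in any library. CPM are counts scaled to library sizes normalised by TMM, edgeR's default method, and floors cover counting error only. *Ins1* and *Ins2* together took 17.8% to 34.4% of counts in the 8 beta cell libraries and 0.97% to 2.34% in the 3 non-beta libraries. The 10 beta cell markers were all higher in beta cells by edgeR. *Nnat* itself went against the label of the sort: it was at 50.5, 46.4, 46.0 and 101 CPM in the libraries labelled NNAT+ of mice 1 to 4 and at 74.7, 80.8, 66.4 and 153 CPM in those labelled NNAT-. In every mouse the library labelled NNAT+ thus had the lower *Nnat* level (log2 difference -0.62, SE 0.17, adjusted *p*=0.444 by edgeR). Every direction given between these fractions therefore holds for the libraries as labelled and would turn round if the labels were exchanged. The comparison of both beta fractions with non-beta cells does not depend on which is which. Mouse 4 also stood apart in both of its beta libraries, and its values are given beside each receptor they affect.

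Stretches immediately upstream of the genes are shown for 5 receptors that went in opposite directions between beta and non-beta cells, *Glp1r*, *Gcgr* and *Ffar1* against *Gpr119* and *Ptger3*, so that their base composition can be compared. They are from RefSeq on GRCm38.p6, 5′ to 3′ on the gene's strand, taken from the 250 bases before the RefSeq start site and only as far as both RefSeq and GENCODE leave them outside the gene. Capitals mark the core bound by MAF factors, TGCTGA or its reverse complement.
Glp1r, chr17:30901617-30901816, + strand: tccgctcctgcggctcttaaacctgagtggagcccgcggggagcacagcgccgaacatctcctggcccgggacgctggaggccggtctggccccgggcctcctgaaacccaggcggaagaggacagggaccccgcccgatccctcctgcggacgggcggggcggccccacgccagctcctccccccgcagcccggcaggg
Gcgr, chr11:120530477-120530698, + strand: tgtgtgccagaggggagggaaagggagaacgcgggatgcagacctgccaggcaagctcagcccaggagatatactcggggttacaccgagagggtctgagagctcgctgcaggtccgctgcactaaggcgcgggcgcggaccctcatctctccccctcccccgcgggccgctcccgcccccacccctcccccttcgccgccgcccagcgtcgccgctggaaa
Ffar1, chr7:30861565-30861720, - strand: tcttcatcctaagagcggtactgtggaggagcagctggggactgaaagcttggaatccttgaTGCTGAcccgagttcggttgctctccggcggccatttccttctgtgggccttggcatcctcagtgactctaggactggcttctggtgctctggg
Gpr119, chrX:48674479-48674728, - strand: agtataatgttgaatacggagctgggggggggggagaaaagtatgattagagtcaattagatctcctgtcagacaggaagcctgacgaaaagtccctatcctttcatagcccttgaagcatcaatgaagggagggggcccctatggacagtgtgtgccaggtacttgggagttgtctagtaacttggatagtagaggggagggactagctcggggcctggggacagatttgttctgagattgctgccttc
Ptger3, chr3:157566626-157566875, + strand: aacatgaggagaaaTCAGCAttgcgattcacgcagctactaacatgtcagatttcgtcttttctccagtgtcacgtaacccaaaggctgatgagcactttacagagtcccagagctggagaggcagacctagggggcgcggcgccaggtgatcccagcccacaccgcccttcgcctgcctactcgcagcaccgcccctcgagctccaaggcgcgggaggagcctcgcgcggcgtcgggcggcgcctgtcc

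Over the full 250 bases, *Glp1r* had 26 CpG dinucleotides and 73.2% GC, *Gcgr* 24 and 70.4%, *Ptger3* 21 and 62%, *Ffar1* 8 and 56.4%, and *Gpr119* 3 and 50.4%. The median of all 32851 promoters was 6 CpG and 52.4% GC, and of the 5 only *Gpr119* was below both values. Of 7 members with an entry, 2 held this MAF core on either strand (*Ffar1* 188 bases and *Ptger3* 236 bases before the start site), against 16.1% of all promoters. The E-box CAGATG was found 59 bases before the start of *Ffar1*, inside the GENCODE exon and so not printed, and 14.4% of all promoters hold it. The homeodomain core TAATTA, in 4.84% of all promoters, was found in none of the 7, and the letters TATAAA, in 12.4%, stood 29 bases before the RefSeq start of *Adra2a*. The motifs do not overlap one another here. These are matches of letters only.

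By edgeR's quasi-likelihood test on mice 1 to 3, whose beta and non-beta fractions could be compared within the mouse, 7 of the 9 receptors were higher in beta cells and 2, *Gpr119* and *Ptger3*, were lower, each at an adjusted *p* below 0.01 and by more than 2-fold. Of the 17424 genes tested, 25.1% were called in either direction, 6.22% as higher in beta cells and 18.9% as lower. The median log2 fold change was 3.29 over the 9 receptors and -0.10 over all tested genes. The beta and non-beta libraries did not overlap in CPM for 8 receptors, all but *Gpr119*, and 42.7% of tested genes do not overlap in this way. In sorted bulk RNA, fewer cells of a type and less RNA per cell cannot be told apart.

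**Figure D1:**
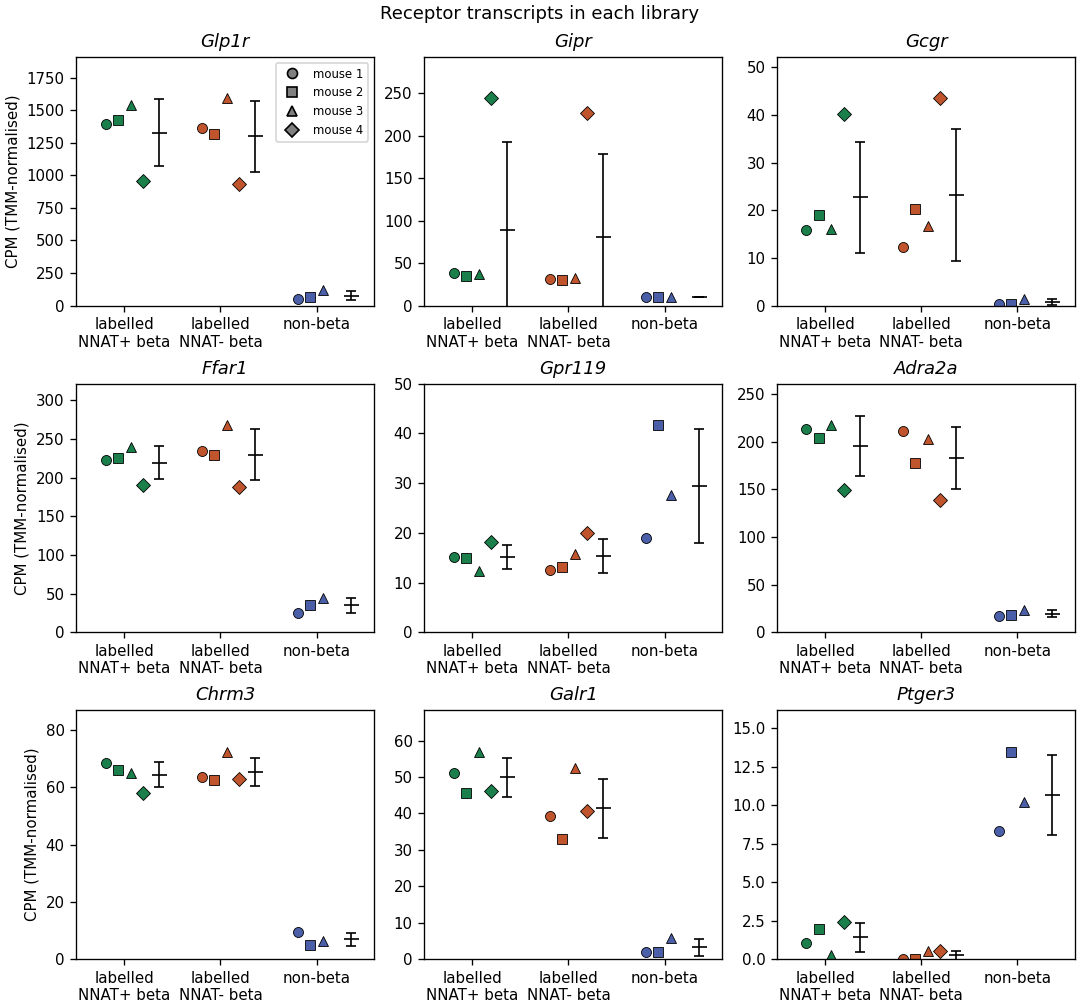
CPM (y axis, linear from 0, a scale of its own in each panel) of the 9 receptors in the libraries labelled NNAT+ beta, labelled NNAT- beta and non-beta, with a symbol for each mouse and a bar for the mean and SD (n = 4, 4 and 3; SDs that would pass below 0 are drawn to 0). The 8 beta cell libraries lie above the 3 non-beta libraries for 7 receptors and below them for *Ptger3*, and those of mouse 4 stand far above the others for *Gipr* and *Gcgr*.

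The class B peptide hormone receptors were led by *Glp1r* (ENSMUSG00000024027.8, chromosome 17, 30901817 to 30940791 on GRCm38), the receptor for the incretin GLP-1. *Glp1r* was at 1397, 1422, 1536 and 959 CPM in the libraries labelled NNAT+ of mice 1 to 4, at 1362, 1317, 1590 and 933 CPM in those labelled NNAT-, and at 51.5, 62.2 and 117 CPM in the non-beta libraries of mice 1 to 3. Every beta cell library was thus far above every non-beta library, mouse 4 had the lowest level in each beta fraction, and mouse 3 had the highest non-beta level. The fitted difference was 19.6-fold (log2 4.29, SE 0.20, adjusted *p*=7.41e-08). Per kilobase of exon, *Glp1r* was the most abundant of the 9 in beta cells by a clear margin, at 226 ± 42 CPM per kb (SD, 8 libraries of 4 mice), and its lowest library (161) was above the highest library of the next receptor, *Ffar1* (64.2).

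*Gipr* (ENSMUSG00000030406.7, chromosome 7, 19156061 to 19166127), the receptor for the other incretin, showed the least separation of the 7 receptors higher in beta cells in mice 1 to 3 and the greatest differences between mice. It was at 38.1, 34.5, 37.7 and 244 CPM in the libraries labelled NNAT+, at 31.8, 30.4, 33.1 and 227 CPM in those labelled NNAT-, and at 9.74, 9.85 and 10.5 CPM in non-beta cells. Within mice 1 to 3 the non-beta level was 27.9% to 30.3% of the beta level, a narrow range, and the fitted difference was 3.4-fold (log2 1.77, SE 0.08, adjusted *p*=5.27e-08). Both beta libraries of mouse 4 were several-fold above all others, with a mean 6.88 times that of mice 1 to 3. Without the mouse as a block, when mouse 4 enters the comparison, the log2 fold change was 3.07 and the call was lost (SE 0.92, adjusted *p*=0.0155).

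*Gcgr* (ENSMUSG00000025127.15, chromosome 11, 120530699 to 120538986), the glucagon receptor, was among the receptors with the largest fitted differences. It was at 15.8, 18.9, 16.1 and 40.1 CPM in the libraries labelled NNAT+, at 12.3, 20.3, 16.6 and 43.4 CPM in those labelled NNAT-, and at 0.367, 0.265 and 1.42 CPM in non-beta cells, where 17, 10 and 53 reads were counted. Mouse 4 was again highest in both beta fractions and mouse 3 highest in non-beta cells. The fitted difference was 25.7-fold with a 95% interval of 13.7 to 48.2 (log2 4.68, SE 0.41, adjusted *p*=5.56e-06). Without mouse 3 the log2 fold change was 5.67 (adjusted *p*=5.73e-06).

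The lipid receptors went in opposite directions. *Ffar1* (ENSMUSG00000044453.5, chromosome 7, 30857390 to 30861564, a single exon), which responds to long-chain fatty acids, was at 223, 225, 240 and 190 CPM in the libraries labelled NNAT+, at 234, 229, 268 and 188 CPM in those labelled NNAT-, and at 24.7, 35.9 and 43.8 CPM in non-beta cells. The beta and non-beta libraries were well apart, and the 8 beta libraries differed little among themselves (CV 11.6%). The fitted difference was 6.92-fold (log2 2.79, SE 0.13, adjusted *p*=8.7e-08).

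*Gpr119* (ENSMUSG00000051209.3, chromosome X, 48667979 to 48674478), a Gs-coupled receptor for fatty acid amides and related lipids, was at 15.1, 14.9, 12.3 and 18.2 CPM in the libraries labelled NNAT+, at 12.6, 13.1, 15.7 and 20.0 CPM in those labelled NNAT-, and at 19.0, 41.7 and 27.7 CPM in non-beta cells. It was higher in the non-beta fraction in 3 of 3 mice, but the library labelled NNAT- of mouse 4 exceeded the non-beta library of mouse 1, so that the groups overlapped. The fit gave 2.04-fold more in non-beta cells (log2 -1.03, SE 0.19, adjusted *p*=0.00105), just past the 2-fold limit. This call was lost without mouse 2 (log2 -0.75, adjusted *p*=0.0105), without mouse 3 (log2 -1.05, adjusted *p*=0.011) and without the mouse as a block (log2 -0.95, adjusted *p*=0.00357). The level of *Gpr119* was thus of the same order in both kinds of fraction, and per kilobase its non-beta level, 12.98 CPM per kb, overlapped that of *Glp1r* (13.3 CPM per kb), the highest there.

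The receptors for neurotransmitters and neuropeptides were all higher in beta cells. *Adra2a* (ENSMUSG00000033717.6, chromosome 19, 54044151 to 54048982, a single exon), the alpha-2A adrenergic receptor, was at 213, 203, 217 and 149 CPM in the libraries labelled NNAT+, at 211, 178, 202 and 139 CPM in those labelled NNAT-, and at 17.4, 17.6 and 23.6 CPM in non-beta cells. The beta and non-beta libraries were far apart (10.5-fold, log2 3.39, SE 0.11, adjusted *p*=8.46e-09), with mouse 4 lowest in both beta fractions.

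*Chrm3* (ENSMUSG00000046159.16, chromosome 13, 9875486 to 10360847), the M3 muscarinic receptor for acetylcholine, was the steadiest of the 9 among beta cell libraries (CV 6.62%). It was at 68.5, 66.2, 64.9 and 58.1 CPM in the libraries labelled NNAT+, at 63.5, 62.5, 72.4 and 63.0 CPM in those labelled NNAT-, and at 9.38, 4.90 and 6.42 CPM in non-beta cells. No beta library came near a non-beta one, and the fitted difference was 9.76-fold (log2 3.29, SE 0.17, adjusted *p*=1.36e-07).

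*Galr1* (ENSMUSG00000024553.8, chromosome 18, 82392380 to 82406777), a Gi-coupled galanin receptor, was at 51.3, 45.6, 57.0 and 46.1 CPM in the libraries labelled NNAT+, at 39.3, 33.0, 52.5 and 40.7 CPM in those labelled NNAT-, and at 1.77, 1.93 and 5.75 CPM in non-beta cells. Mouse 3 was highest in all 3 fractions. The fitted difference was 15.9-fold (log2 4.00, SE 0.25, adjusted *p*=5.79e-07).

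*Ptger3* (ENSMUSG00000040016.16, chromosome 3, 157566892 to 157645888), which encodes the EP3 receptor for prostaglandin E2, had the opposite distribution. It was at 1.04, 1.92, 0.235 and 2.40 CPM in the libraries labelled NNAT+, at 0, 0, 0.499 and 0.519 CPM in those labelled NNAT-, and at 8.32, 13.5 and 10.2 CPM in non-beta cells. All beta libraries lay below all non-beta libraries, and 2 of them had 0 counts, which allows up to 0.102 and 0.0913 CPM per library by the floor of 3 counts. The fit gave 24.5-fold more in non-beta cells, with a wide interval (log2 -4.61, 95% interval -6.44 to -2.79, adjusted *p*=0.000827), and -5.35 without mouse 3 (adjusted *p*=0.00172). Set against non-beta cells alone, the libraries labelled NNAT- were lower (log2 -5.88, SE 1.06, adjusted *p*=0.00109), whereas those labelled NNAT+ missed the threshold (log2 -3.35, SE 0.92, adjusted *p*=0.0129). These contrasts share the non-beta libraries and also draw on the difference between the beta fractions of mouse 4. The other 8 receptors passed in both.

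Ordered by CPM per kb of exon in the 8 beta cell libraries, the receptors ran from *Glp1r* (226) through *Ffar1* (53.8), *Adra2a* (39.2), *Gipr* (24.3), *Galr1* (15.3), *Chrm3* (10.4), *Gcgr* (8.76) and *Gpr119* (6.72) to *Ptger3* (0.145). Only the first and the last step of this order separated the ranges of libraries, and every other pair of neighbours overlapped. In the 3 non-beta libraries the order was *Glp1r* (13.3), *Gpr119* (12.98), *Ffar1* (8.33), *Adra2a* (4.04), *Gipr* (2.88), *Ptger3* (1.87), *Chrm3* (1.10), *Galr1* (1.06) and *Gcgr* (0.262). Here *Ffar1* was separated from *Adra2a*, *Adra2a* from *Gipr*, *Gipr* from *Ptger3* and *Galr1* from *Gcgr*, and the other neighbours overlapped.

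The level that a receptor kept in the non-beta fraction can be set beside markers of beta cells, since insulin transcripts were also counted there. In mice 1 to 3 the mean non-beta level as a percent of the beta level was 4.11% for *Gcgr*, 5.36% for *Glp1r*, 6.79% for *Galr1*, 9.56% for *Adra2a*, 10.4% for *Chrm3*, 14.7% for *Ffar1* and 29.3% for *Gipr*. For the 10 beta cell markers it was between 4.02% (*Mafa*) and 38.2% (*Slc30a8*), with a median of 5.33%, and it was 4.58% for *Ins1* and 4.80% for *Ins2*. *Glp1r*, *Gcgr* and *Galr1* were thus near the insulin genes on this scale, and *Gipr* and *Ffar1* were further from them, with percents above those of 9 of the 10 markers. The non-beta library of mouse 3 had the highest level of 6 of the 7 receptors that were higher in beta cells, all but *Chrm3*, and its summed beta cell markers were also the highest, at 26600 CPM against 11000 and 12700 CPM in mice 1 and 2. The part of beta cell RNA in the non-beta levels was not tested. For *Gpr119* the non-beta level was 211% of the beta level (137% to 297% by mouse). For *Ptger3* the beta level was 5.77% of the non-beta level, against a median of 3.11% for 7 alpha cell markers (*Gcg* 1.53%), 10.1% for 4 delta cell markers (*Sst* 13.6%) and 8.24% for *Ppy* and *Pyy*.

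**Figure D2:**
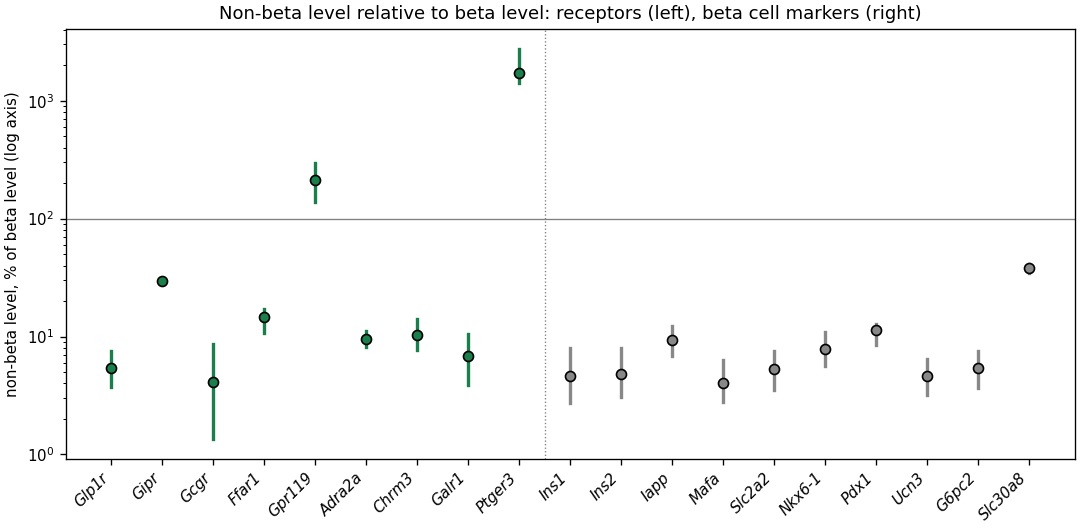
Mean non-beta CPM as a percent of mean beta CPM in mice 1 to 3 (y axis, log scale; the line marks 100%) for the 9 receptors (green) and 10 beta cell markers (grey), with bars from the lowest to the highest mouse. *Glp1r*, *Gcgr* and *Galr1* lie among the markers, *Gipr* near *Slc30a8*, and *Gpr119* and *Ptger3* above 100%.

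The non-beta fraction also held markers of many cells, so that a level there cannot be assigned to 1 of them. Its 7 alpha cell markers summed to 124000 to 172000 CPM, 4 delta cell markers to 6890 to 13500 CPM and 2 PP cell markers to 1860 to 3690 CPM. Acinar cell markers summed to 10300 to 39500 CPM, mesenchymal to 2020 to 4630 CPM, endothelial to 1730 to 1970 CPM and macrophage and leukocyte markers to 913 to 2030 CPM. In the beta cell libraries the endothelial markers reached at most 11.8 CPM and the mesenchymal at most 2.16 CPM, with *Pdgfra* at 0 in all 8. The acinar markers reached 1390 CPM in the library labelled NNAT+ of mouse 2 and were at 5.64 to 308 CPM in the other beta cell libraries. The duct markers summed to 215 to 275 CPM in beta and 300 to 478 CPM in non-beta libraries. Most of the beta sum was *Krt7* (mean 215 CPM in beta cells of mice 1 to 3, 113 CPM in non-beta cells). The other 4 duct markers were called lower in beta cells, at 1.97% (*Muc1*) to 11.6% (*Spp1*) of the non-beta level.

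Between the libraries labelled NNAT+ and NNAT-, edgeR called 0 of the 9 receptors, and 8 of all 17424 tested genes (0.0459%). DESeq2 also called 0 receptors, and 2 receptors, *Gipr* and *Ptger3*, had an unadjusted edgeR *p* below 0.05. *Gipr* was higher in the library labelled NNAT+ in 4 of 4 mice, by 0.10 to 0.26 on the log2 scale (fitted 0.18, 95% interval 0.03 to 0.34, edgeR adjusted *p*=0.806). The fraction difference in *Gipr* was small beside its difference between mouse 4 and the others. *Ptger3* was higher in 3 of 4 mice (fitted log2 2.52, 95% interval 0.32 to 4.73, edgeR adjusted *p*=0.834), on counts of 9 to 105 in the libraries labelled NNAT+ and 0 to 19 in those labelled NNAT-. Its estimate was 1.74 without mouse 2 and 4.16 without mouse 3.

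For the other 7 receptors the fitted differences lay between -0.06 (*Ffar1*) and 0.30 (*Galr1*). *Galr1* and *Adra2a* were higher in the library labelled NNAT+ in 4 of 4 mice (*Galr1* 0.12 to 0.46, fitted 0.30 with a 95% interval of -0.14 to 0.73, adjusted *p*=0.9, and *Adra2a* 0.01 to 0.19, fitted 0.10 with an interval of -0.10 to 0.30). The 95% intervals of *Glp1r* (-0.31 to 0.39), *Ffar1* (-0.31 to 0.20), *Chrm3* (-0.33 to 0.28) and *Gpr119* (-0.44 to 0.43) left room for changes of about that size in either direction, and that of *Gcgr* (-0.61 to 0.67) for larger ones. The misses of the threshold do not show that the fractions were alike in these receptors.

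**Figure D3:**
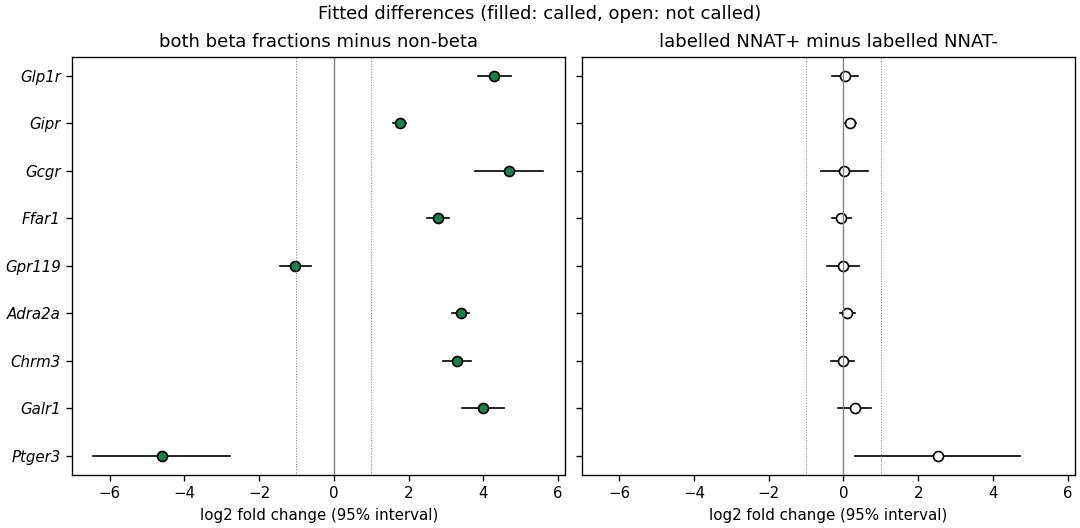
Fitted log2 fold changes (x axis) with 95% intervals for the 9 receptors, for both beta fractions minus non-beta cells (left) and for libraries labelled NNAT+ minus labelled NNAT- (right), where filled points passed the threshold and dotted lines mark 2-fold. On the left 7 points lie right of 2-fold, *Ptger3* far to the left of it and *Gpr119* close to it, and on the right 8 points lie within 2-fold and *Ptger3* at 2.52 with a wide interval.

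Markers of other islet cells moved with this comparison and are given beside it. The summed alpha cell markers were 3310 to 4510 CPM in the libraries labelled NNAT+ and 2070 to 2910 CPM in those labelled NNAT-, the delta cell markers 1400 to 2490 and 543 to 1050 CPM, and *Ppy* and *Pyy* 299 to 421 and 89 to 159 CPM. Of these lists, 0 of 7 alpha cell markers passed the test, 1 of 4 delta cell markers and 2 of 2 PP cell markers, all higher in the libraries labelled NNAT+. *Ptger3*, the receptor with the largest difference here, was also the one most enriched in non-beta cells, and the part of other islet cells in its difference was not tested.

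For 7 of the 9 receptors, all but *Galr1* and *Ptger3*, beta cells of mouse 4 differed from those of mice 1 to 3 by more on the log2 scale than the labelled fractions differed in the fit. The mean of its 2 beta cell libraries, relative to the mean of the 6 of mice 1 to 3, was 6.88 for *Gipr*, 2.51 for *Gcgr*, 2.37 for *Ptger3* and 1.37 for *Gpr119*. It was 0.658 for *Glp1r*, 0.705 for *Adra2a*, 0.799 for *Ffar1*, 0.913 for *Chrm3* and 0.935 for *Galr1*. With 1 mouse on one side, these ratios carry no test. Among 17424 genes ordered from the most raised in mouse 4, *Gipr* was at rank 100 and *Gcgr* at rank 647, whereas *Glp1r* was at rank 16411. The same ratio was 0.5 for *Ins1*, 0.571 for *Ins2* and 2.09 for *Nnat*. Among the genes most raised, named after their values were seen, were the nuclear long non-coding RNAs *Malat1* (1790 CPM in mouse 4 against 58.9 CPM in mice 1 to 3), *Neat1* (360 against 18.1), *Meg3* (1130 against 28.5) and *Firre* (183 against 2.65). Protein-coding genes were among them too, such as *Rgs11* (128 against 2.11), *Fosb* (363 against 18.8) and *Arc* (57.8 against 3.1). The part of RNA composition in the *Gipr* and *Gcgr* levels of mouse 4 was not tested, and without a non-beta library from that mouse its non-beta levels are unknown.

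**Figure D4:**
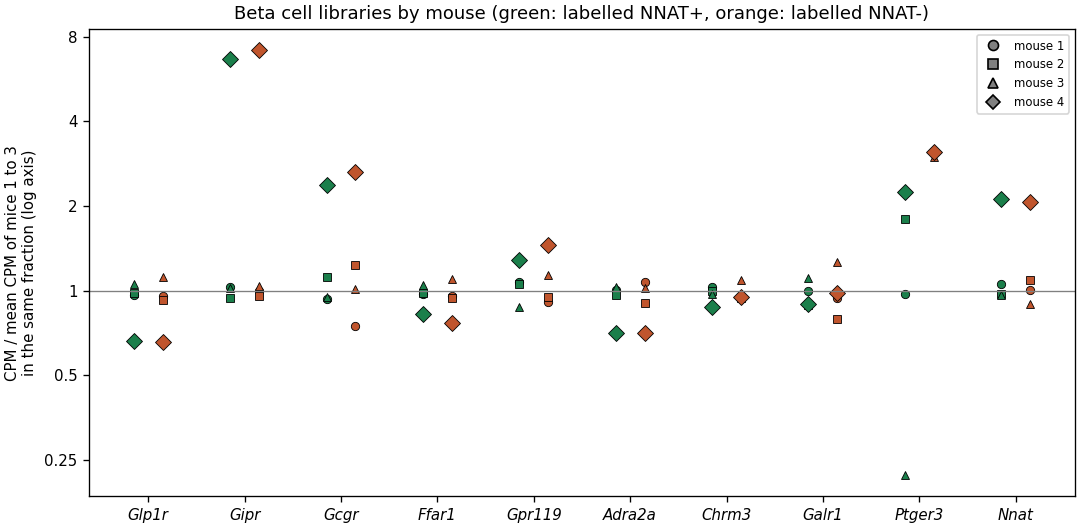
CPM of each beta cell library divided by the mean of mice 1 to 3 in the same fraction (y axis, log scale) for the 9 receptors and *Nnat*, green for libraries labelled NNAT+ and orange for NNAT-, with a symbol for each mouse; 2 *Ptger3* libraries at 0 are not drawn. The diamonds of mouse 4 stand far above the line for *Gipr*, *Gcgr*, *Nnat* and, on low counts, *Ptger3*, in both fractions, and below it for *Glp1r*, *Adra2a* and *Ffar1*.

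The genes whose log2 CPM followed each receptor most closely over the 11 libraries are given as a description, since all points share the beta and non-beta difference. *Glp1r* went with *Hadh*, *Nkx6-1* and *Ucn3* (Pearson's r 0.998 each), *Ffar1* with *Hadh* (0.999), *Glp1r* and *Iapp*, *Adra2a* with *Papss2*, *Ucn3* and *Ttyh2* (0.998), *Galr1* with *Slc2a2* (0.996), *Taar1* and *Car10*, and *Chrm3* with *Tle3* (0.995), *Tmod1* and *Lin28a*. *Nkx6-1*, *Ucn3*, *Iapp* and *Slc2a2* are themselves beta cell markers. *Gipr* and *Gcgr*, in which mouse 4 stood out, went with other genes: *Gipr* with *Ankrd24* (0.99), *Mysm1* and *Noct*, and *Gcgr* with *Slc37a4* (0.996), *Golga4* and *Mapt*. *Gpr119* went with *Ano7* (0.954), *Cth* and *A1cf*, and *Ptger3* with *Scn2b* (0.968), *Otof* and *Khdrbs2*, all at higher mean CPM in non-beta than in beta cells. Over the 8 beta cell libraries alone the closest genes were *Pnisr* for *Gipr* (0.998), *Snrnp48* for *Gcgr* (0.996), *Pcyox1* for *Glp1r* (0.994), *Trpm7* for *Gpr119* (0.992), *Got2* for *Adra2a* (0.991), *Elf4* for *Ffar1* (0.983), *Ctxn1* for *Galr1* (0.975), *6820408C15Rik* for *Ptger3* (0.975) and *Pank3* for *Chrm3* (0.948).

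In the families to which these receptors belong, more of the genes that passed the filter were called lower than higher in beta cells, but the filter itself shaped this count. Of 48 other receptors on the 6 family lists, 34 were tested, 4 were higher in beta cells, 23 lower and 7 not called, with a median log2 fold change of -6.32. Over all tested genes, 6.22% were called higher and 18.9% lower, and these shares belong beside each family count below. *Cnr2*, *Adra1b*, *Adra1d*, *Ptgir* and *Ptgfr* had 0 counts in all beta libraries, and *Tbxa2r*, *Glp2r* and *Pth1r* had 1, 1 and 2 in total. *Gpr183*, *S1pr3*, *Adra1a*, *Gpr35* and *Gpr132* had at most 3, 5, 5, 6 and 9 counts in any beta library, under the filter's minimum count of 10. Such genes could pass the filter only through their non-beta counts, so they could not have come out higher in beta cells. The count of lower genes and the median include them, so neither is a result about the families. Of the 9 receptors themselves, 7 were higher. Both they and the lists were chosen with earlier results of these data known, so the counts are not a test of one against the other. The list of class B peptide hormone receptors had 4 of 11 tested genes higher and 4 lower. Besides *Glp1r*, *Gipr* and *Gcgr*, the receptor for corticotropin-releasing hormone *Crhr1* was higher, at 3.96 CPM in beta and 0.285 CPM in non-beta cells (log2 4.58, SE 1.02, adjusted *p*=0.00337). *Calcrl*, which forms receptors for CGRP and adrenomedullin, was lower, at 0.067 and 48.7 CPM, as were *Pth1r* (0.00722 and 5.49 CPM) and *Glp2r* (0.00285 and 1.58 CPM).

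Of 14 tested receptors for fatty acids and other lipids, 3 were higher in beta cells and 10 lower. *Ffar3*, a receptor for short-chain fatty acids, was at 20.2 CPM in beta and 2.63 CPM in non-beta cells (log2 2.92, SE 0.18, adjusted *p*=5.5e-07), and the cannabinoid receptor *Cnr1* at 4.22 and 0.952 CPM (log2 2.34, SE 0.55, adjusted *p*=0.00468). The other cannabinoid receptor, *Cnr2*, known from immune cells, had 0 counts in all 8 beta libraries and was at least 41.4-fold lower than in non-beta cells (3.43 CPM), by a floor of 3 counts per library. *S1pr3* (0.0442 and 36.4 CPM) and *Gpr183* (0.0134 and 4.53 CPM) were also lower. Like *Cnr2*, they could pass the filter only through non-beta counts.

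*Adra2a* was the only one of 6 tested adrenergic receptors called higher in beta cells, and the other 5 were called lower. *Adra1b* and *Adra1d* had 0 counts in all beta libraries and were at least 30.1-fold and 13.4-fold lower. *Adra1a* was at 0.037 CPM in beta and 2.17 CPM in non-beta cells, with at most 5 counts in any beta library. *Adra1b*, *Adra1d* and *Adra1a* could thus pass the filter only through non-beta counts and could not have come out higher. *Chrm3* was likewise the only one of 3 tested muscarinic receptors that was higher, with *Chrm2* lower (0.137 and 7.39 CPM). Both tested galanin receptors were higher, *Galr3* at 21.7 and 3.33 CPM (log2 2.85, SE 0.32, adjusted *p*=3.69e-05). None of 7 tested prostanoid receptors was higher, and 5 were lower. Beside *Ptger3* these included the thromboxane receptor *Tbxa2r* (0.00342 and 13.6 CPM), and *Ptgir* and *Ptgfr*, both with 0 counts in all beta libraries and at least 102-fold and 32.2-fold lower. *Tbxa2r*, *Ptgir* and *Ptgfr* likewise could pass the filter only through non-beta counts.

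Of 11 tested genes for ligands and the enzymes that make them, 2 were higher in beta cells and 5 lower (6.22% and 18.9% over all tested genes). *Pcsk1*, a prohormone convertase that cleaves proinsulin and can cut GLP-1 from proglucagon, was at 1297 CPM in beta and 93.8 CPM in non-beta cells (log2 3.85, SE 0.16, adjusted *p*=4.42e-08). *Th*, the rate-limiting enzyme of catecholamine synthesis, was at 52.7 and 4.78 CPM (log2 3.30, SE 0.19, adjusted *p*=2.96e-07). *Gcg*, which encodes glucagon and GLP-1, was lower, at 2096 and 143100 CPM (log2 -6.16, SE 0.19, adjusted *p*=7.24e-09). The cyclooxygenases, which start prostaglandin synthesis, were lower too, *Ptgs1* at 0.0567 and 29.2 CPM and *Ptgs2* at 0.0961 and 16.2 CPM.

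Downstream of the receptors, of 31 genes of the Gs and cAMP pathway, 2 were higher in beta cells, 11 lower and 18 not called, with a median log2 fold change of -0.21. Over all tested genes, 6.22% were called higher and 18.9% lower, and the median was -0.10. The same shares are to be set beside the lists that follow. The adenylyl cyclase *Adcy9* was at 85.7 CPM in beta and 31.7 CPM in non-beta cells (log2 1.48, SE 0.09, adjusted *p*=3.82e-07), and the protein kinase A regulatory subunit *Prkar2b* at 71.9 and 21.9 CPM (log2 1.73, SE 0.10, adjusted *p*=3.06e-07). The cyclase *Adcy4* had 0 counts in all beta libraries and was at least 232-fold lower, and *Adcy7* (0.418 and 31.0 CPM) and *Adcy5* (0.67 and 25.7 CPM) were lower.

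Of 8 tested genes of the Gi and Go pathway, 1 was higher, *Gnaz*, which encodes the pertussis toxin-insensitive Gz subunit (73.5 and 31.1 CPM, log2 1.28, SE 0.10, adjusted *p*=3e-06), and 2 were lower, *Gnai1* (23.2 and 104 CPM, log2 -2.10, SE 0.11) and the G protein-gated potassium channel *Kcnj3* (0.683 and 19.6 CPM, log2 -4.97, SE 0.27). Of 15 genes of the Gq and phospholipase C pathway, 2 were higher, the protein kinase C genes *Prkca* (157 and 57.5 CPM, log2 1.51, SE 0.10) and *Prkcb* (121 and 50.7 CPM, log2 1.33, SE 0.11). In the same list 5 were lower, among them *Plcb2* (0.012 and 5.64 CPM), *Gna15* (0.227 and 3.37 CPM) and *Gna14* (0.716 and 4.86 CPM). Of 17 receptor regulators, 2 were higher, the receptor kinases *Grk3* (155 and 60.4 CPM, log2 1.28, SE 0.11) and *Grk5* (80.1 and 35.6 CPM, log2 1.19, SE 0.11), and 5 were lower, among them beta-arrestin 1, *Arrb1* (2.45 and 50.0 CPM, log2 -4.10, SE 0.27), and the receptor activity-modifying proteins *Ramp2* (4.90 and 24.1 CPM) and *Ramp3* (0.171 and 18.8 CPM). Between the libraries labelled NNAT+ and NNAT-, edgeR called 0 of the 43 tested receptors on the 6 family lists and 0 of the 82 tested genes on the other lists, and 4 and 9 of them had an unadjusted *p* below 0.05. Of all 17424 tested genes, 8 were called, and 839 higher and 130 lower ones had an unadjusted edgeR *p* below 0.05.

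**Figure D5:**
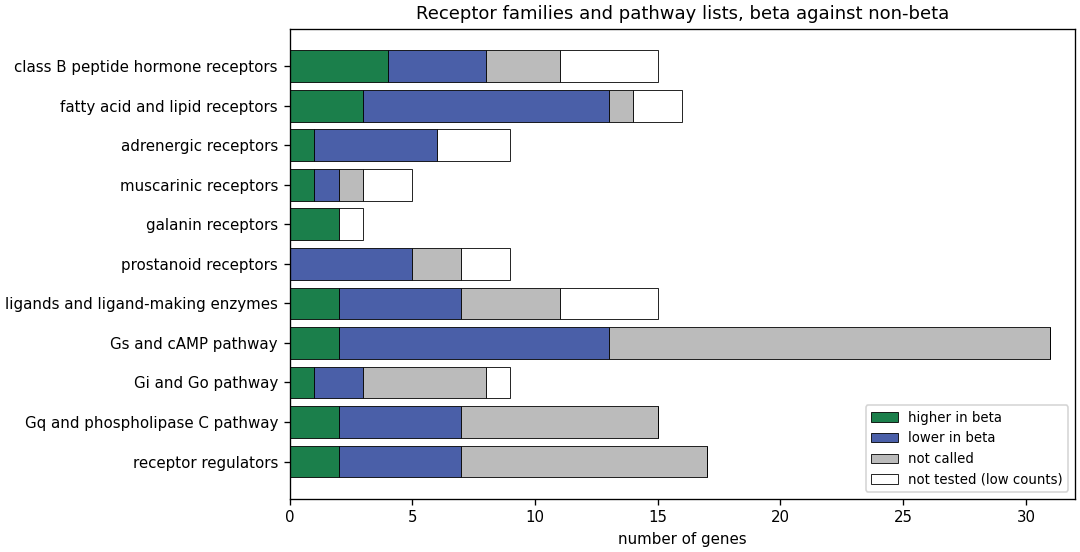
Number of genes (x axis) on each of 11 lists that were called higher in beta cells (green), called lower (blue), not called (grey) or not tested because of low counts (white) in both beta fractions against non-beta cells. The galanin receptors are the only family with no gene lower, and the prostanoid receptors the only list with none higher. The lower genes include some that could pass the filter only through non-beta counts.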

How the data were processed

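Cells were sorted from islets dispersed with Accutase, and poly(A) RNA was sequenced as paired 75 bp reads. Reads had been aligned by STAR 2.7.1a to mm10 by the authors, who counted reads per gene with GENCODE vM25 annotation and deposited whole-number counts with no normalisation. Whether strand was used in counting is not given in the sources used here. The authors' own test was DESeq2 1.32.0. No member shares exonic bases with another gene in GENCODE vM21, the annotation used here for coordinates and lengths (55141 of 55401 identifiers matched without their version).

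Counts were tested in R 4.3.3 with the quasi-likelihood test of edgeR 4.0.16, TMM factors and filterByExpr by fraction (minimum count 10), over 17424 genes and all 11 libraries in 1 fit with the mouse as a block. Adjustment was by Benjamini-Hochberg over all tested genes, and calls needed an adjusted *p* below 0.01 and more than 2-fold. The block leaves mouse 4 out of the difference of both beta fractions together from non-beta cells. In the contrast of each fraction alone with non-beta cells, mouse 4 still enters through its difference between the fractions. By the study's methods replicates are separate animals, and the labels number them alike across fractions. Deviations from the group means correlated at 0.182 to 0.658 between the beta fractions of the same mouse and at -0.322 to 0.0931 between mice. Between beta and non-beta fractions of the same mouse they correlated at 0.1 to 0.143 (NNAT+) and 0.0369 to 0.0651 (NNAT-), so that pairing there rests on the animal. Alternatives were RLE factors, leaving out hormone genes, no filter, DESeq2 1.42.0, no block, an adjusted *p* below 0.05, each mouse left out, and beta libraries alone. The tests were tried on simulated counts with 200 genes changed, 2-fold or 4-fold in equal numbers. At an adjusted *p* below 0.01, edgeR recovered 30 of the 2-fold and 56 of the 4-fold changes for beta against non-beta cells. Between the beta fractions it recovered 37 and 57, and it made 1 false call in each comparison. DESeq2 recovered 51 and 72, and 55 and 69, with 30 and 28 false calls. Many true changes were thus missed, more of them by edgeR.

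The members and lists were chosen with earlier results of these data known. Genes named were all 9 members, up to 3 called genes per list and direction with the largest change, the 3 genes correlating best with each member over 11 libraries and the best over 8, *Nnat*, and marker genes. Motifs and sequences came from RefSeq promoters, in which 7 members were used.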

Additional observations from a re-analysis of the deposited data

Results flagged for a closer look

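The level of 1 mouse lay far from the others of its group of 4, by Dixon's 95% limit on the gap over the range, in 4 cases. *Gipr* was at 244 CPM in the library labelled NNAT+ of mouse 4, where the other 3 were at 34.5 to 38.1 CPM, and at 227 CPM in the library labelled NNAT- of the same mouse, where the others were at 30.4 to 33.1 CPM. *Gcgr* was at 40.1 CPM in the library labelled NNAT+ of mouse 4, against 15.8 to 18.9 CPM. *Chrm3* was at 72.4 CPM in the library labelled NNAT- of mouse 3, against 62.5 to 63.5 CPM. Chance flags about 1 in 20 such groups, and 14.2% and 12.8% of all tested genes were past the limit in the libraries labelled NNAT+ and NNAT-. Mouse 4 was the highest and past the limit in both beta fractions for 452 of 17424 genes (2.59%), against 9 to 28 genes for each of the other mice.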

How the results depend on the processing

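All 9 receptors kept their direction between beta and non-beta cells under every alternative run, and 9 were called under RLE factors, without hormone genes, without the filter, with DESeq2, at an adjusted *p* below 0.05 and without mouse 1 or 4. Without mouse 2 or mouse 3 there were 8 (*Gpr119* lost), and with no replicate block 7 (*Gipr* and *Gpr119* lost). Over the left-out mice the log2 fold change of *Gpr119* was -1.29 to -0.75. The block changed no other call of a receptor in any comparison. *Ptger3* in libraries labelled NNAT+ against non-beta cells passed without the filter (adjusted *p*=0.00267) and at an adjusted *p* below 0.05. Between the libraries labelled NNAT+ and NNAT- no receptor was called under any alternative. The count of all genes called, 8, became 5 without hormone genes, 26 without the filter, 86 with DESeq2, 1 with no replicate block, 14 at an adjusted *p* below 0.05, and 0 (without mouse 3) to 5 over the left-out mice. Its small differences turned in sign for *Glp1r* (-0.00041 with RLE factors and with DESeq2, -0.0029 without hormone genes, -0.0051 in beta libraries alone, -0.0030 to 0.064 over the left-out mice) and *Gcgr* (-0.012, -0.010, -0.015 and -0.019 in that order, -0.0088 without the filter, -0.027 with no replicate block, -0.088 to 0.074 over the left-out mice), and without mouse 3 for *Gpr119* (-0.11 to 0.11 over the left-out mice) and *Chrm3* (-0.062 to 0.028). The cause was not tested. Depth limits only *Ptger3* in beta cells and *Gcgr* in non-beta cells, where counts were at most 105 and 53.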
